A study of Mus musculus with 8 samples.

Results

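The genes described here are *Trp53*, which encodes the transcription factor p53 in the mouse, and 8 genes that it is known to control or that control it: *Mdm2*, *Mdm4*, *Ccng1*, *Trp53inp1*, *Phlda3*, *Sesn2*, *Eda2r* and *Zmat3*. They were taken by gene symbol from a named list, and each of the 9 was found once among the 28432 genes of the count table. RNA was measured by poly(A) RNA sequencing in 8 embryonic mouse retina samples, 4 *Lhx2* CKO and 4 control, each made of both retinas of 1 embryo. CKO embryos were *Lhx2* flox/- and carried *Hes1* CreERT2 on 1 allele. Control embryos were *Lhx2* flox/+ with the same Cre allele, so that *Hes1*, the locus that drives the Cre, was heterozygous in both genotypes. Every embryo also carried the *Rosa26* ai14 reporter on 1 allele, was exposed to tamoxifen through the dam at E11.5, and was harvested at E15.5. Recombination was thus limited to cells that expressed *Hes1*, mainly retinal progenitor cells, and their descendants. A control embryo had 1 intact *Lhx2* allele after recombination, so the comparison is of no intact allele against 1 in recombined cells.

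p53 is a sensor of DNA damage and other stress. The protein is made continuously and destroyed quickly, because Mdm2 marks it for degradation and Mdm4 blocks its ability to activate genes. When stress frees p53 from both, it switches on genes that halt the cell cycle, repair DNA, adjust metabolism or kill the cell, and *Mdm2* is among those genes, which closes a feedback loop. Most of this control acts on the protein, which RNA sequencing does not measure. In developing neural tissue the pathway is best known for the death of progenitors and newborn neurons after damage.

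Promoter sequence was examined for the members because p53 binds DNA at a known motif, a pair of 10-base half-sites. RefSeq promoters (build GRCm38.p6, 250 bases before to 50 bases after a start) were matched for 7 of the 9 genes, with 8 windows because *Mdm4* has 2 starts; *Zmat3* and *Trp53inp1* were not matched. The half-site motif reads the same on both strands, so 1 search covered both. It was found in 3 of 8 windows, those of *Trp53*, *Mdm2* and *Ccng1*, and in 8.36% of all 32851 promoters of the same length. A 20-base element of 2 adjoining half-sites with up to 2 mismatches was found in 0 of 8 windows and in 0.158% of all promoters, and 2 half-sites with a spacer of up to 13 bases were found in 0 of 8 windows and in 0.0731% of all promoters. The 3 matches are printed because these are p53 itself, its main inhibitor and a classical target; 100 bases are given for each, in the direction of transcription, with the half-site in capitals.
*Trp53* (chr11:69580239-69580338, + strand): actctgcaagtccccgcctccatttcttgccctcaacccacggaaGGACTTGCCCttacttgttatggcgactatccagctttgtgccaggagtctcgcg
*Mdm2* (chr10:117710890-117710989, - strand): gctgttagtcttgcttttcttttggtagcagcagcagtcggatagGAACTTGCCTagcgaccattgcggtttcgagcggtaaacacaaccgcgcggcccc
*Ccng1* (chr11:40755417-40755516, - strand): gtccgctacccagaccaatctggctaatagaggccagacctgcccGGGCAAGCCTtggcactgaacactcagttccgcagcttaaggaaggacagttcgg
The half-sites begin at positions -75, -186 and -185 from the RefSeq start in these 3 promoters, in that order, and all 3 windows lie upstream of the gene as GENCODE M21 annotates it. The first 17 bases of the *Trp53* window are also the start of an exon, in its untranslated part, of *Wrap53*, a neighbour read from the - strand; the other windows hold no annotated gene. These are matches of letters only, and the samples hold no measurement of p53 binding. Sequence outside the windows, such as introns farther than 50 bases past the start, was not searched, so the counts of 0 of 8 do not cover it.

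Library totals were 13955259 to 19099937 reads in CKO samples and 13143587 to 15063867 reads in control samples. Genes were tested where 3 or more samples reached 20 normalized counts, which 13891 genes and all 9 members did. Normalized counts are the deposited read counts divided by a size factor for each library, and log2FC is the log2 of CKO over control. A gene is said to have risen or fallen where the edgeR quasi-likelihood test gave a Benjamini-Hochberg adjusted p below 0.001, the cutoff of the study, which 8.61% of the tested genes passed (3.64% higher and 4.97% lower in the CKO). The first 2 principal components held 49.35% and 17.59% of the variance; the first separated the genotypes, and on the second CKO replicate 1 and control replicate 3 lay farthest out, on opposite sides. High *Xist* with few reads of 4 Y-linked genes (23 to 52 in sum, against 2521 to 3448 in the other samples) marked 1 of 4 CKO embryos and 2 of 4 control embryos. These were CKO replicate 1 and control replicates 1 and 4. The *Lhx2* count averaged lower in CKO samples but includes exons outside the deleted part, so it does not check the labels.

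None of the 9 members rose or fell at the study's cutoff. A count of 0 of 9 is near what the background of 8.61% gives. At the looser adjusted p below 0.05, which 33.3% of all tested genes passed, *Zmat3* was higher and *Sesn2*, *Phlda3* and *Trp53* were lower in the CKO, which is 4 of 9 members. There were 5 members with an unadjusted p below 0.05, against 43.6% of all tested genes. In 6 of the 9 the 4 CKO samples and the 4 control samples did not overlap (*Mdm2* and *Zmat3* higher, *Trp53*, *Phlda3*, *Sesn2* and *Eda2r* lower in the CKO), against 33.8% of all tested genes. DESeq2, which passed 17.2% of the tested genes at 0.001, passed *Zmat3* upward and *Sesn2* downward. The counts of 4, 5 and 6 members were not tested against these backgrounds. The median log2FC of the members was -0.05, against 0.01 over all tested genes, and their median absolute log2FC was 0.23, against 0.18.

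**Figure D1:**
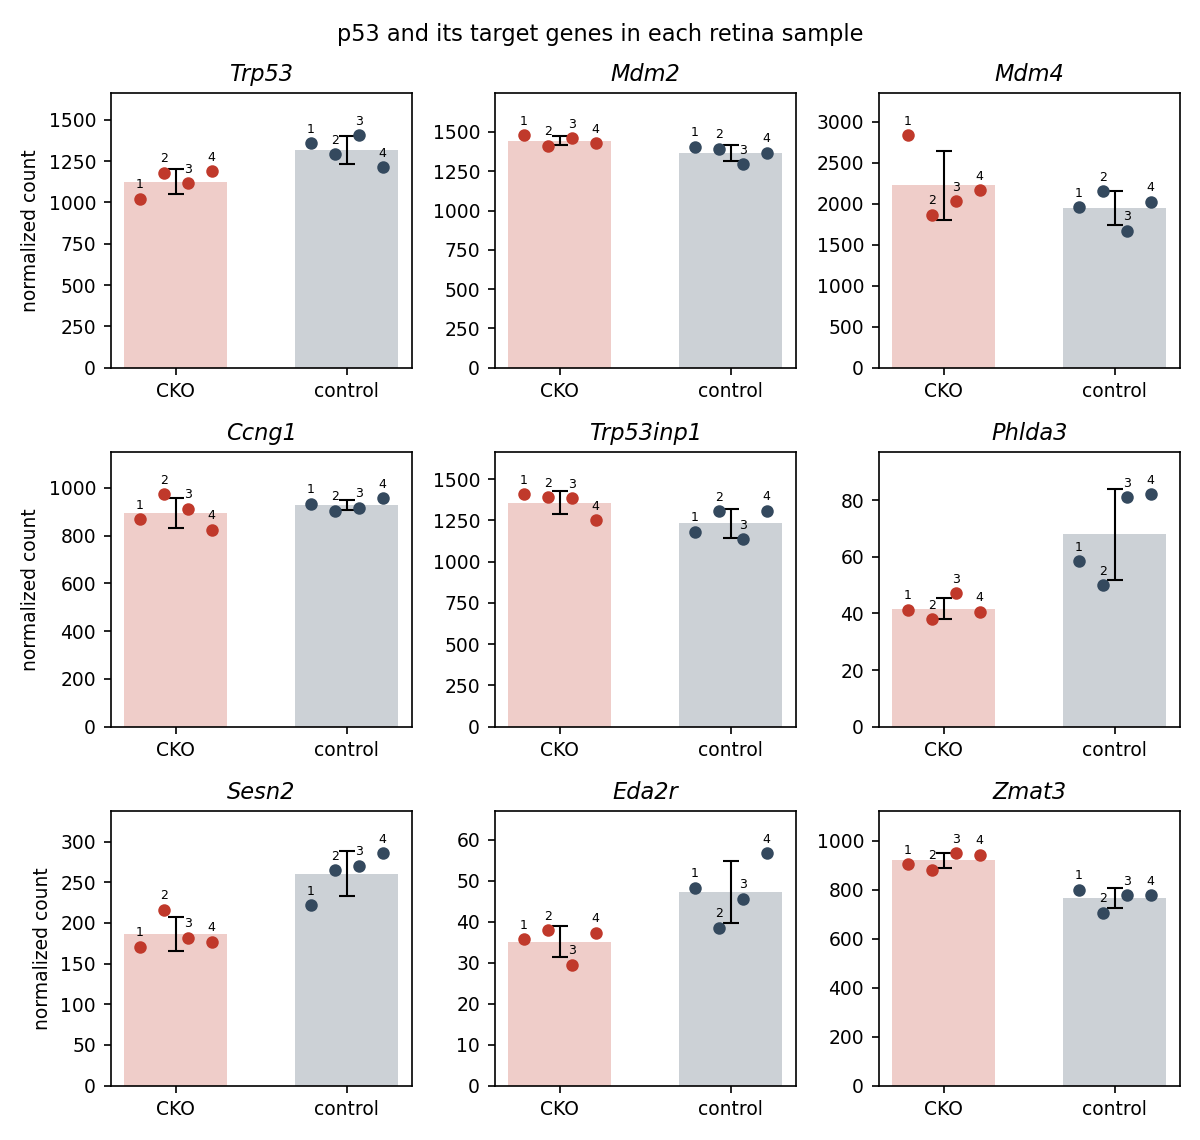
Normalized counts of the 9 members in each sample, with the 4 CKO samples left of the 4 control samples in every panel, numbered by replicate; bars are means and error bars are the SD (n = 4 each). The groups are apart in 6 panels and overlap in those of *Mdm4*, *Ccng1* and *Trp53inp1*.

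*Trp53* itself (ENSMUSG00000059552; chromosome 11, 69580359 to 69591873, + strand, GRCm38) had 1022, 1179, 1117 and 1188 normalized counts in CKO replicates 1 to 4, against 1360, 1292, 1407 and 1214 in control replicates 1 to 4. Every CKO sample lay below every control sample, but the nearest pair, CKO replicate 4 and control replicate 4, were close. Means were 1127 ± 76.3 in the CKO and 1318 ± 83.8 in the control (SD, n = 4 each), a log2FC of -0.23 (95% interval -0.36 to -0.09), and the edgeR adjusted p of 0.0151 passed 0.05 but not the study's cutoff. Over the 17 alternative fits and left-out samples the adjusted p ran from 0.00727 to 0.0436. The transcript was thus abundant in both genotypes and 0.86-fold as abundant in the CKO, with an interval of 0.78 to 0.94.

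The genes with the most similar pattern across the 8 samples, by the root mean square difference of mean-centred log2 values among 12152 genes that averaged 50 or more normalized counts, were *Rpl6* (0.0253), *Tubg1* (0.0281) and *Limd2* (0.0302). The spread of *Trp53* itself on that scale was 0.141. *Rpl6* encodes a protein of the large ribosomal subunit and *Tubg1* encodes gamma-tubulin, which nucleates microtubules. A processed pseudogene, *Trp53-ps*, is annotated but has no row in the table used here, and how the authors counted reads shared with it is not stated.

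Both genes that hold p53 in check had means that were higher in the CKO, and neither passed a cutoff. *Mdm2* (ENSMUSG00000020184; chromosome 10, 117688875 to 117710758, - strand), the ubiquitin ligase, had 1478, 1412, 1460 and 1428 normalized counts in CKO samples, against 1406, 1394, 1296 and 1367 in control samples. The 2 groups did not overlap, but the lowest CKO sample and the highest control sample were nearly equal. The log2FC was 0.08 (95% interval -0.02 to 0.19; edgeR adjusted p = 0.219), and the coefficient of variation was 2.09% in CKO and 3.61% in control samples, about what counting alone gives (2.55% and 2.77%). A change of *Mdm2* beyond 1.14-fold upward or 0.98-fold downward lay outside the interval.

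*Mdm4* (ENSMUSG00000054387; chromosome 1, 132959484 to 133030561, - strand) binds p53 and blocks its activation domain. It had 2834, 1866, 2031 and 2165 normalized counts in CKO samples, against 1954, 2152, 1670 and 2024 in control samples. CKO replicate 1 was highest of all 8 and control replicate 3 lowest, the samples that also lay farthest out on the second principal component, and the remaining samples overlapped. The log2FC was 0.19 (95% interval -0.08 to 0.47, edgeR adjusted p = 0.258) and was 0.05 without CKO replicate 1 (edgeR adjusted p = 0.735). With embryo sex in the fit it was 0.24 (edgeR adjusted p = 0.0989). Its coefficient of variation, 19.1% in CKO and 10.4% in control samples, was far above that of counting (2.04% and 2.31%). The pseudogene *Mdm4-ps* had 4 to 7 reads in CKO samples and 3 to 7 reads in control samples.

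Ratios between these 3 genes within a sample need no scaling between libraries. The log2 ratio of *Mdm2* to *Trp53* reads was 0.53, 0.26, 0.39 and 0.27 in CKO samples, against 0.05, 0.11, -0.12 and 0.17 in control samples. All 4 CKO ratios were above all 4 control ratios. This had to be so, because both genes were already apart in opposite directions and the size factor cancels within a ratio. The smallest permutation p followed from that and was no further test. The means, 0.36 ± 0.128 in the CKO and 0.05 ± 0.125 in the control (SD, n = 4 each), differed by 0.31 (two-sided exact permutation p = 0.0286, the smallest that 4 against 4 samples can give; 0.0858 adjusted over the 3 ratios). Without CKO replicate 1 the difference was 0.25 (exact permutation p = 0.0571, where 0.0286 could be reached).

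The ratio of *Mdm4* to *Trp53* overlapped between the genotypes, at 0.97 ± 0.350 in the CKO and 0.56 ± 0.232 in the control on the log2 scale (SD, n = 4 each; difference 0.40, exact permutation p = 0.0857, adjusted 0.129). The ratio of *Mdm2* to *Mdm4* was -0.60 ± 0.238 in the CKO and -0.51 ± 0.113 in the control (difference -0.10, exact permutation p = 0.543, adjusted 0.543), and without CKO replicate 1 the difference was 0.015. After adjustment none of the 3 ratios differed at 0.05.

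**Figure D2:**
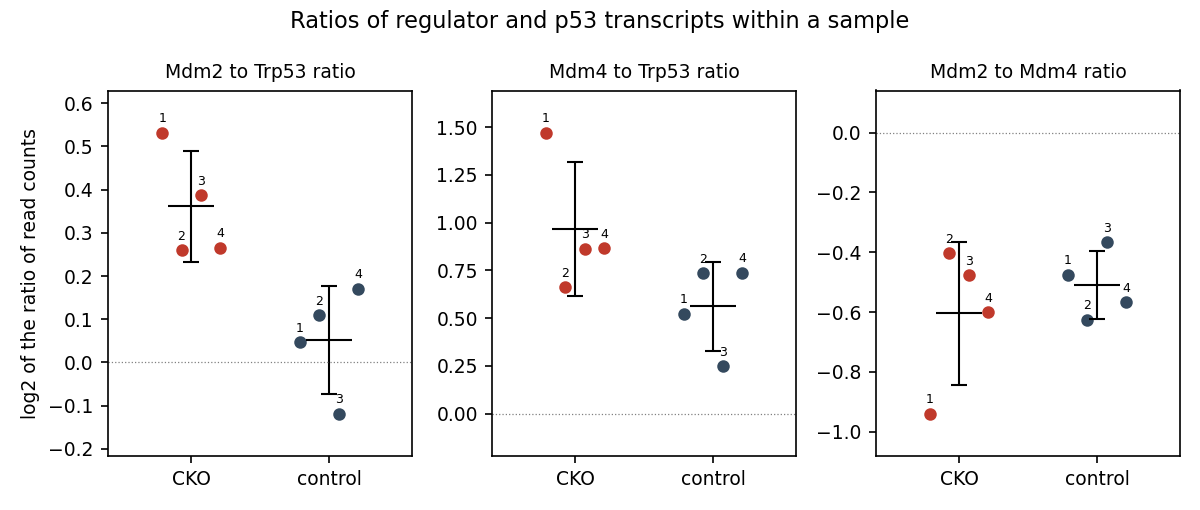
Log2 ratio of read counts within each sample for *Mdm2* to *Trp53*, *Mdm4* to *Trp53* and *Mdm2* to *Mdm4*, with CKO samples left of control samples, numbered by replicate; lines are means and error bars are the SD (n = 4 each). The CKO and control points are apart for *Mdm2* to *Trp53* and overlap for the other 2 ratios.

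*Ccng1* and *Trp53inp1* are p53 targets that act back on p53 or alongside it, and neither passed a cutoff. *Ccng1* (ENSMUSG00000020326; chromosome 11, 40748552 to 40755311, - strand) encodes cyclin G1, which brings a phosphatase to Mdm2. It had 869, 974, 913 and 825 normalized counts in CKO samples, against 933, 905, 918 and 958 in control samples. Both the highest and the lowest sample were CKO, and the control samples lay between them. The log2FC was -0.05 (95% interval -0.18 to 0.08; edgeR adjusted p = 0.534).

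*Trp53inp1* (ENSMUSG00000028211; chromosome 4, 11156431 to 11174379, + strand) encodes a stress protein of the nucleus that promotes autophagy and cell death. It had 1408, 1389, 1384 and 1251 normalized counts in CKO samples, against 1182, 1306, 1136 and 1307 in control samples. CKO replicates 1 to 3 were above all control samples, while CKO replicate 4 lay among them. The log2FC was 0.14 (95% interval -2.9e-05 to 0.28; edgeR adjusted p = 0.115).

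*Sesn2*, *Phlda3* and *Eda2r*, the members with the fewest reads, all averaged lower in the CKO. *Sesn2* (ENSMUSG00000028893; chromosome 4, 132492032 to 132510501, - strand) encodes sestrin 2, which restrains the growth kinase mTORC1 when leucine is scarce. It had 171, 216, 182 and 177 normalized counts in CKO samples, against 222, 265, 271 and 286 in control samples. No CKO sample reached the lowest control sample, although CKO replicate 2 came close to it. Means were 186 ± 20.4 in the CKO and 261 ± 27.5 in the control (SD, n = 4 each), a log2FC of -0.48 (95% interval -0.71 to -0.25). The edgeR adjusted p was 0.00445 and the DESeq2 adjusted p was 9.4e-04, so the call at 0.001 depended on the tool.

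*Phlda3* (ENSMUSG00000041801; chromosome 1, 135766119 to 135769136, + strand) encodes a small protein that keeps the kinase Akt from the membrane. It had 41.3, 37.9, 47.0 and 40.6 normalized counts in CKO samples, against 58.4, 50.0, 81.1 and 82.0 in control samples. The CKO samples were close together and the control samples spread widely above them. The log2FC of -0.70 (95% interval -1.11 to -0.29; edgeR adjusted p = 0.0144) was the largest in size among the members, and the adjusted p was 0.0522 without control replicate 4. The coefficient of variation was 9.22% in CKO samples, less than counting alone gives at this level, and 23.8% in control samples, where counting alone gives 12.5%.

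*Eda2r* (ENSMUSG00000034457; chromosome X, 97333840 to 97377216, - strand) encodes a receptor of the tumour necrosis factor family that binds ectodysplasin A2. It had 35.7, 37.9, 29.5 and 37.3 normalized counts in CKO samples, against 48.3, 38.5, 45.7 and 56.7 in control samples. CKO replicate 2 and control replicate 2 nearly met. The log2FC was -0.42 (95% interval -0.81 to -0.04; edgeR adjusted p = 0.0872), and with embryo sex in the fit, which this X-linked gene calls for, it was -0.37 (edgeR adjusted p = 0.145).

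*Zmat3* (ENSMUSG00000027663; chromosome 3, 32334792 to 32366014, - strand), which encodes a zinc finger protein that binds RNA, went the other way. It had 905, 881, 948 and 943 normalized counts in CKO samples, against 800, 706, 777 and 777 in control samples. All CKO samples were above all control samples. Means were 919 ± 32.0 in the CKO and 765 ± 40.9 in the control (SD, n = 4 each), a log2FC of 0.27 (95% interval 0.14 to 0.39). The edgeR adjusted p was 0.00383 and the DESeq2 adjusted p was 3.97e-04, and the edgeR adjusted p stayed below 0.05 with each sample left out.

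**Figure D3:**
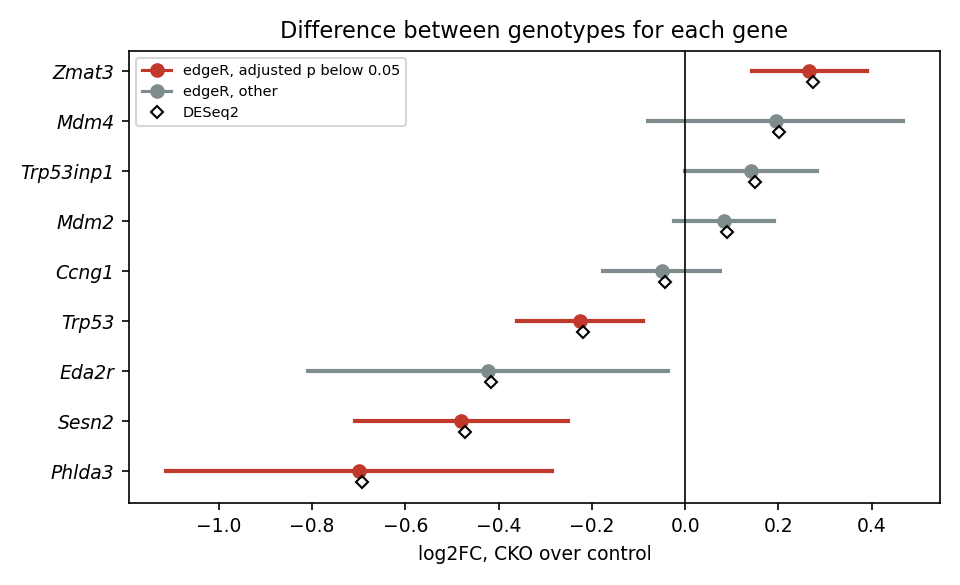
Log2FC of CKO over control for each member with its 95% interval from the edgeR fit, red where the edgeR adjusted p was below 0.05 and grey otherwise, and the DESeq2 value as an open diamond. *Zmat3* lies above 0 and *Trp53*, *Phlda3*, *Sesn2* and *Eda2r* lie below 0, and the intervals of the other 4 members reach or cross 0.

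Levels were compared between genes per kilobase of merged exon, from all annotated isoforms. On this scale *Trp53* averaged 279 normalized counts per kilobase in the CKO and 326 in the control. *Mdm2* averaged 284 in the CKO and 269 in the control, and *Ccng1* averaged 255 in the CKO and 264 in the control. In CKO samples the ranges of *Mdm2* (278 to 291), *Trp53* (253 to 294) and *Ccng1* (235 to 277) overlapped from each gene to the next, whereas in control samples *Trp53* (300 to 348) stood above *Mdm2* (255 to 277), which overlapped *Ccng1* (258 to 273). *Trp53inp1* averaged 210 in the CKO and 190 in the control. *Mdm4* averaged 150 in the CKO and 132 in the control. Both were below the first 3 genes in every sample of the same genotype. *Zmat3* averaged 80.4 in the CKO and 66.9 in the control. *Sesn2* averaged 53.7 in the CKO and 75.0 in the control. This pair stood in opposite order in the 2 genotypes, with ranges apart in CKO samples and overlapping in control samples. *Phlda3* averaged 26.7 in the CKO and 43.5 in the control. *Eda2r* was lowest, at 5.96 in the CKO and 8.03 in the control. Among all tested genes the control level of *Trp53* was at percentile 80.9 and that of *Eda2r* at percentile 6.43. The long merged exons of *Mdm4* (14.798 kb) and *Zmat3* (11.435 kb) lower their values if a shorter isoform is the one expressed.

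**Figure D4:**
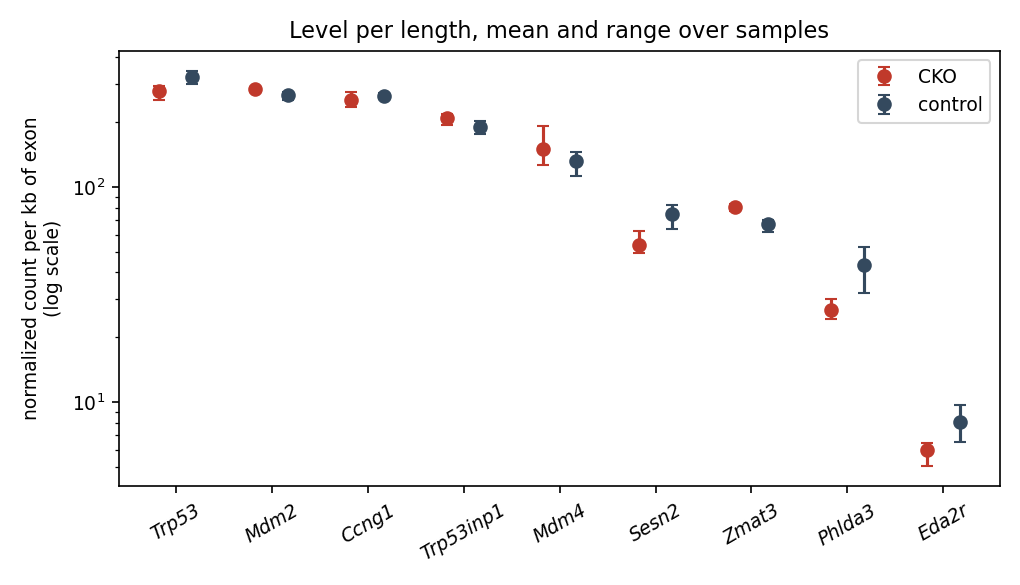
Normalized counts per kilobase of merged exon for each member on a log axis, CKO left of control; points are means and bars span the lowest to the highest of 4 samples. The levels run from *Trp53*, *Mdm2* and *Ccng1*, at 255 to 326 on average, down to *Eda2r* at 5.96 in the CKO and 8.03 in the control.

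The wider pathway was counted over 4 lists of other regulators and targets of p53, 71 genes in all, of which 68 were in the table and 57 were tested. None rose, 6 fell and 51 did not pass by edgeR, so that 10.5% were called, near the 8.61% of all tested genes; the median log2FC was -0.05. At the adjusted p below 0.05, 7 were higher and 15 lower in the CKO, which is 38.6% of them, against 33.3% of all tested genes. In 26 of the 57 (45.6%) the groups did not overlap, against 33.8% of all tested genes. DESeq2 passed 5 upward and 10 downward at 0.001 (26.3%), against 17.2% of all tested genes. None of these shares was tested against that of all genes. *Steap3*, among the 6 that fell, reached the filter only through control samples.

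Among the regulators 19 were tested, 0 rose and 1 fell, which is 5.26% called, against 8.61% of all tested genes. *Chek1*, the kinase that holds the cell cycle when replication stalls, had 445, 547, 534 and 470 normalized counts in CKO samples, against 825, 739, 647 and 808 in control samples. The groups were well apart (log2FC -0.60, edgeR adjusted p = 4.95e-04), but the call was lost in 8 of 17 alternatives. The ribosomal protein gene *Rpl5*, whose product can bind Mdm2, had a log2FC of -0.25, and the checkpoint kinase gene *Chek2* had -0.53. *Ppp1r13b*, which encodes a p53 cofactor that favours cell death genes, had 0.36 and *Trp53bp1*, a DNA break repair factor, had 0.27. These 4 did not pass 0.001 by edgeR (adjusted p 0.00109 to 0.0135), while DESeq2 passed *Rpl5*, *Chek2* and *Ppp1r13b*. Exons of *Rpl5* and *Trp53bp1* overlap a gene on the other strand, from which these unstranded reads cannot be told apart.

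The list of p53 targets of cell cycle arrest had 11 tested, 0 that rose and 3 that fell. That is 27.3% called, against 8.61% of all tested genes (4.97% lower in the CKO), a difference that was not tested. The list also holds spindle genes of dividing cells, so its share is not one of arrest genes alone. *Gadd45a*, which encodes a stress protein that binds PCNA and other cell cycle proteins, had 1151, 1143, 1137 and 1208 normalized counts in CKO samples, against 2108, 2102, 1925 and 2038 in control samples. The 2 groups were far apart and each was tight. Its log2FC was -0.82 (95% interval -0.93 to -0.71; edgeR adjusted p = 9.4e-07, rank 45 of all tested genes), and the call held in all 17 alternatives. Of its exon bases 19.1% overlap *E230016M11Rik* on the other strand. *Ckap2* (log2FC -0.36, edgeR adjusted p = 3.27e-04) and *Gtse1* (log2FC -0.48, edgeR adjusted p = 5.66e-04) also fell. Both encode microtubule-associated proteins made mostly in dividing cells, and their calls were lost in 5 and 7 of the 17 alternatives. *Psrc1*, another spindle gene, had -0.38, and *Btg2*, an antiproliferative gene of neurogenic progenitors, had 0.21; neither passed 0.001 by edgeR (adjusted p 0.00244 and 0.00801, in that order), and DESeq2 passed both (adjusted p 2.66e-04 and 2.81e-04).

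*Cdkn1a*, *Bbc3* and *Bax*, the best known p53 targets of arrest and death, are named here after their values were seen. *Cdkn1a*, the inhibitor p21 of cyclin-dependent kinases, had 232, 269, 261 and 311 normalized counts in CKO samples, against 185, 200, 291 and 247 in control samples (log2FC 0.22, edgeR adjusted p = 0.252). *Bbc3*, which encodes the death inducer Puma, had 330, 368, 353 and 351 in CKO samples, against 277, 282, 396 and 324 in control samples (log2FC 0.14, edgeR adjusted p = 0.354). *Bax*, which permeabilizes mitochondria, had 864, 927, 970 and 910 in CKO samples, against 757, 816, 1041 and 863 in control samples (log2FC 0.08, edgeR adjusted p = 0.498). In all 3 the groups overlapped and control replicate 3 was the highest control sample. Without control replicate 3 the log2FC was 0.35 for *Cdkn1a*, 0.25 for *Bbc3* and 0.18 for *Bax* (edgeR adjusted p 0.0491, 0.0299 and 0.0379, in that order). Leaving out the highest control was bound to raise these values, and they passed 0.05 under no other alternative. Without control replicate 1, the lowest control for each, the values were 0.12, 0.07 and 0.02 (edgeR adjusted p 0.529, 0.657 and 0.885). None passed 0.001 under any alternative.

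Of the death targets 13 were tested, 0 rose and 2 fell (15.4% called, against 8.61% of all tested genes). *Siva1*, which encodes a protein of death receptor signalling, had 384, 459, 420 and 391 normalized counts in CKO samples, against 671, 580, 690 and 648 in control samples (log2FC -0.64, edgeR adjusted p = 8.68e-05), and this call held in all 17 alternatives. *Steap3*, a ferrireductase of endosomes, fell the most in size of all genes named here but was scarce. It reached the filter only through control samples, so the filter itself favoured a fall, and the 15.4% includes this gene. *Steap3* had 10, 8, 5 and 6 reads in CKO samples, against 24, 28, 25 and 28 reads in control samples (log2FC -2.00, 95% interval -2.54 to -1.47; edgeR adjusted p = 1.13e-04), and the call was lost in 1 of 17 alternatives. *Trp53i11* had a log2FC of 0.32, which did not pass 0.001 by edgeR (adjusted p = 0.00139) and passed by DESeq2 (adjusted p = 7.8e-07). *Trp53i13* had -0.43 and *Bid*, which encodes a death protein that links death receptors to mitochondria, had 0.21, and neither passed 0.001 by edgeR or DESeq2. Exons of *Trp53i13* and *Bid* overlap a gene on the other strand.

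Targets of repair and metabolism had 14 tested, 0 that rose and 0 that fell, against 8.61% of all tested genes called. *Ddit4*, an inhibitor of mTORC1, had the smallest p, with 1684, 1904, 1732 and 1933 normalized counts in CKO samples, against 1090, 1515, 1415 and 1288 in control samples. All CKO samples were above all control samples, at a log2FC of 0.45 (edgeR adjusted p = 0.00282, DESeq2 adjusted p = 1.48e-05). The ribosomal protein gene *Rps27l* had -0.37, the excision repair endonuclease gene *Ercc5* had 0.31, the coenzyme A synthesis gene *Pank1* had -0.24 and the glycolysis regulator *Tigar* had 0.27. These 4 did not pass 0.001 by edgeR, and their signs were mixed; DESeq2 passed *Rps27l* and *Ercc5*.

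**Figure D5:**
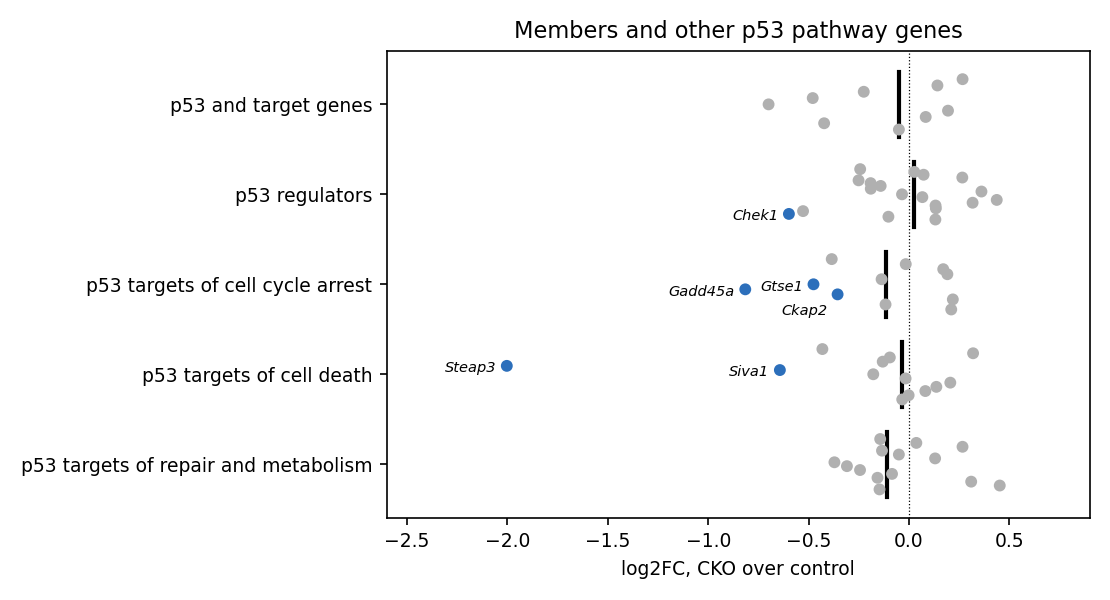
Log2FC of CKO over control for the 9 members (top row) and the tested genes of the 4 lists of other p53 regulators and targets, a point a gene, with the median of each list as a bar and genes that fell at the edgeR adjusted p below 0.001 in blue with their names. The 6 blue genes, *Chek1*, *Gadd45a*, *Ckap2*, *Gtse1*, *Siva1* and *Steap3*, are all below 0, and all genes above 0 are grey.

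The make-up of the tissue differed between the genotypes beside all of these values. Of 10 cell cycle markers 9 fell, with a summed level of 30265 to 34723 normalized counts in CKO samples and 45468 to 50562 in control samples. Of 10 progenitor markers 8 fell (41578 to 49043 in CKO samples and 90449 to 98117 in control samples). The other 2 had a positive log2FC, and 1 of them was higher in every CKO sample than in any control sample. Of 10 retinal ganglion cell markers 5 rose (78602 to 84291 in CKO samples and 56542 to 67495 in control samples). In that list 9 of the 10, not all, had a positive log2FC. For scale, 8.61% of all tested genes were called. The labelled tissue thus showed its defining markers in every sample. In bulk samples fewer cells of a type and less RNA per cell cannot be told apart, and the part of these shifts in the values of the p53 genes was not tested. Markers of other cell types differed in direction, with calls by edgeR at 0.001, which 8.61% of all tested genes passed. Endothelial genes summed to 2704 to 3595 in CKO samples and 4426 to 4731 in control samples, with 2 of 7 tested fallen (*Cldn5* and *Kdr*). Most of that sum was *Kdr* alone, at 2479 to 3145 in CKO samples and 3943 to 4272 in control samples, so it is mainly a value of 1 gene. In the list 4 of the 7 had a positive log2FC, and its median was 0.05. Macrophage genes summed to 606 to 838 in CKO samples and 773 to 919 in control samples, with 0 of 8. Blood genes summed to 609 to 1924 in CKO samples and 388 to 2443 in control samples, with 0 of 6, and pigment epithelium genes to 141 to 508 in CKO samples and 269 to 450 in control samples, with 1 of 5 fallen. Although these sums overlapped, 0 of the 5 tested pigment epithelium genes had a positive log2FC, and their median was -1.52. At the adjusted p below 0.05, 4 of the 5 were lower in the CKO, against 33.3% of all tested genes in either direction. DESeq2 passed 3 of the 5 downward at 0.001, against 17.2% of all tested genes. Mesenchyme genes summed to 39.7 to 113 in CKO samples and 94.2 to 174 in control samples, with 1 of 2 fallen. Lens genes summed to 32.7 to 90.7 in CKO samples and 15.2 to 57.4 in control samples, and *Lim2* had no row in the count table. The lens gene that could be tested, *Cryba1*, a crystallin, had 58.0, 21.5, 25.2 and 53.4 normalized counts in CKO samples, against 12.1, 3.12, 3.43 and 3.04 in control samples. It was higher in every CKO sample, at a log2FC of 2.83, and passed 0.001 by DESeq2 (adjusted p = 1.27e-06) but not by edgeR (adjusted p = 0.00132). *Cryba1* reached the filter only through CKO samples, so the filter itself favoured a higher value in the CKO.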

How the data were processed

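Poly(A) RNA of 8 retina samples was sequenced from 1 end over 50 cycles with an unstranded kit. The authors aligned reads to mm10 with TopHat 2 and deposited raw read counts per gene made with HTSeq, neither normalized nor pooled; the submitters' processing notes also name Cufflinks. No source used here gives their versions, the counting strand or the gene annotation. Of the gene IDs, 28232 were found in GENCODE M21 (GRCm38), which gave coordinates, exons and overlaps.

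The study tested with DESeq2. Here edgeR 4.0.16 (R 4.3.3; quasi-likelihood test, TMM scaling, genotype only) was fitted on the 13891 genes that reached 20 normalized counts in 3 or more samples, with Benjamini-Hochberg adjustment over all of them. Standard errors are the log2FC over the square root of F, and 95% intervals use the moderated degrees of freedom. Levels use median-of-ratios size factors. Ratios were tested with a two-sided exact permutation test over all 70 assignments of 4 of 8 samples. The fit was tested on simulated data before use. Alternatives were DESeq2 1.42.0, limma 3.58.1 (voom), other scalings and filters, 1 surrogate variable (sva 3.50.0), embryo sex, a replicate block and each sample left out.

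Replicates are separate embryos, from 3 litters over 2 days; no source used here says which sample came from which, so litter and day were in no test. Between replicates of a genotype, counts differed beyond sampling noise (chi-square per gene 3.42 to 19.1), which is more than sequencing the same library again would give. This check cannot tell a second library of the same embryo from a library of another embryo. Named genes were all 9 members, the 5 with the smallest p in each list, the 3 nearest in pattern to *Trp53*, and genes on which a limit turns. The members and lists were chosen with earlier results of these data known.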

Additional observations from a re-analysis of the deposited data

Results flagged for a closer look

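Of 70 groups of 4 samples examined among the named genes, 4 held a sample far from the other 3, where chance alone gives about 1 in 20. *Trp53inp1* had 1251 normalized counts in CKO replicate 4, against 1384 to 1408 in the other CKO samples. *Bid* had 224 in CKO replicate 1, against 260.4 to 266.2 in the other CKO samples. In control replicate 3 *Rps27l* stood at 818.6, and the remaining controls at 688.4 to 700.8. In control replicate 1 *Steap3* stood at 24.17, and the remaining controls at 28.35 to 29.16, a difference of a few reads.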

How the results depend on the processing

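Of 153 log2FC values of the members under 17 alternatives, 151 kept their direction and side of the 0.001 cutoff, 2 passed it newly (*Sesn2* and *Zmat3* with DESeq2) and 0 reversed. With DESeq2 1 member rose and 1 fell, 5 other pathway genes rose and 10 fell, and 2390 of all genes were called, against 0, 0, 0, 6 and 1196 with edgeR. Without the low-count filter 2 other pathway genes rose and 2055 genes were called. At an adjusted p below 0.05, 1 member was higher and 3 lower in the CKO, 7 other pathway genes were higher and 15 lower, and 4619 genes were called. With each sample left out in turn, 0 to 2 other pathway genes rose, 3 to 7 fell, and 686 to 1553 genes were called, the most without control replicate 3, when *Trp53i11* was among those that rose. Deviations of same-numbered CKO and control samples correlated weakly (0.14, -0.15, 0.06 and -0.12), and 2 CKO samples correlated best with the same-numbered control. Such values cannot settle whether the numbers follow litter or day. With a replicate block 2 other pathway genes fell, 676 genes were called and 0 members were called. The sign-flip test of the *Mdm2* to *Trp53* difference of 0.31 gave an exact p of 0.125. That is the smallest 4 pairs can give, and it too was fixed by the separation of both genes. With samples left out that difference ran from 0.25 to 0.35, the *Mdm4* to *Trp53* difference from 0.24 to 0.51 (exact permutation p = 0.0286 without CKO replicate 2), and the *Mdm2* to *Mdm4* difference from -0.16 to 0.015, where it reversed without CKO replicate 1. Depth limited *Phlda3*, *Eda2r* and *Steap3* most, and with 4 embryos a genotype the intervals leave changes of the size printed beside each gene undetected.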
